A study of Mus musculus with 8 samples.

Results

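The signalling genes of the interleukin 7 and TSLP receptors are described here as 10 named genes, found by symbol among the 53647 gene identifiers counted in each of 8 RNA sequencing libraries. They are the receptor chains Il7r, Il2rg and Crlf2, the kinases Jak1 and Jak3, the transcription factors Stat5a and Stat5b, and the feedback inhibitors Cish, Socs1 and Socs2. All 10 passed the filter on low counts, as did 16352 genes in all. Each library was made from marrow cells of mice that lacked lineage markers (Lin-) and carried CD127, 4 from Trerf1 knockout (KO) marrow, whose genotype label reads Tref1 -/-, and 4 from wild-type (WT) marrow labelled Trerf1 +/+. Trerf1 encodes a zinc finger transcriptional regulator. CD127 is the protein product of Il7r, so the gate that every library shares selected on 1 of the 10 genes, in protein form. Strain, age, the design of the deleted allele and whether the numbered libraries are separate animals are not given in the sources used here. P-values therefore measure the spread between libraries, which may be technical in part. Libraries of the same genotype also differed in Xist, as given below.

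The interleukin 7 receptor is built from the alpha chain Il7r and the common gamma chain Il2rg, which other cytokine receptors share. The TSLP receptor joins the same Il7r chain to Crlf2 in place of Il2rg. At the interleukin 7 receptor, ligand binding brings together JAK1, held on the alpha chain, and JAK3, held on the gamma chain. These kinases phosphorylate STAT5A and STAT5B. STAT5 enters the nucleus and switches on survival and cycling genes along with Cish, Socs1 and Socs2, whose SH2-domain proteins damp the receptor in turn. In bone marrow, interleukin 7 is the main cytokine of early B-lineage cells and of lymphoid progenitors.

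Promoter sequence is shown for the sorted receptor gene and for the classic STAT5 feedback gene, the start and the end of the pathway measured here. Both runs are from RefSeq, build GRCm38.p6, and hold 250 bases before and 50 after the gene start, written 5′ to 3′ on the gene's own strand. Il7r lies at chr15:9529827-9530126 on the minus strand and Cish at chr9:107296409-107296708 on the plus strand. Capitals mark matches to TTCNNNGAA, the palindrome known as the STAT motif, and to AGGAAGT on either strand, a motif of ETS-family factors that was chosen after the sequence had been seen.
Il7r: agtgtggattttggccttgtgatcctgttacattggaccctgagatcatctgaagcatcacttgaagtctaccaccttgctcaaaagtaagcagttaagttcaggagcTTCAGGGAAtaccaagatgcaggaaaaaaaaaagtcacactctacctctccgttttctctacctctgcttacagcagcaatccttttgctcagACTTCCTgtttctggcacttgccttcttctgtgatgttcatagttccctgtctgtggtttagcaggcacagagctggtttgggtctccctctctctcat
Cish: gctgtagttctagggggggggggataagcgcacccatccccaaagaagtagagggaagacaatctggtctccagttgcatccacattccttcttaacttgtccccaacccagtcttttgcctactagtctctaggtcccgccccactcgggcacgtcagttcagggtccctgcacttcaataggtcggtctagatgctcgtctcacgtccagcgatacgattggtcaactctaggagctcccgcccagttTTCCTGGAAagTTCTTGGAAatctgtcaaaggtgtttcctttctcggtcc
The Cish window holds 2 STAT motif matches, TTCCTGGAA and TTCTTGGAA, beginning 1 and 12 bases from the gene start of the table. Windows with 2 or more such matches made up 0.457% of the 32851 promoters, and windows with at least 1 made up 8.3%. The Il7r window holds 1 STAT motif match, TTCAGGGAA, starting at -142, and 1 ETS match in the reverse sense, ACTTCCT, starting at -49. The ETS letters occur in 9.35% of all promoters. Of the 10 genes, 9 had a promoter in the table, and the other 7 held neither motif. The 2 motifs do not overlap in these windows, and a match is a description of letters, not evidence of binding.

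Libraries held between 31109744 and 73414626 counts in all, and every one of the 10 genes rested on 287 counts or more in each library. Trerf1 served as the check of the labels, and it stood at 13.4, 12.8, 12.1 and 22.1 CPM (counts scaled to library size by TMM) in KO1 to KO4, against 29.0, 32.1, 27.1 and 22.3 CPM in WT1 to WT4. The library labelled KO4 was level with WT4, and the labels do not say which part of the gene was deleted. The log2 fold change of Trerf1, KO over WT, was -0.87 ± 0.20 (SE), with an adjusted p of 0.999 over all genes by edgeR's quasi-likelihood test, and without KO4 and WT4 the value was -1.20 with an adjusted p of 0.0473. Some results below are therefore given without these libraries as well. Scaled by library size alone, Xist stood at 443, 0.0609, 489 and 765 CPM in KO1 to KO4. In WT1 to WT4 it stood at 530, 0.063, 0.643 and 538 CPM. A library above 10 CPM counted as Xist present, so both genotypes held libraries with and without it. How much of the spread within a genotype is technical was not tested. The 8 early lymphoid markers, Il7r among them, summed to 6405 to 10144 CPM in KO and 6377 to 7998 CPM in WT libraries. Most of that sum came from Ly6d, Dntt and Flt3, while Rag1 reached 42.7 CPM at most. These genes are named after their values were seen. The 7 plasmacytoid dendritic cell markers summed to 7187 to 8476 CPM in KO and 6347 to 10677 CPM in WT libraries. In such bulk samples, fewer cells of a type and less RNA per cell cannot be told apart.

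None of the 10 signalling genes was shown to differ between KO and WT beyond the spread of the libraries. At an adjusted p under 0.05, edgeR's quasi-likelihood test called 0 of the 10 genes and 0% of all 16352 genes. At an unadjusted p under 0.05 it picked 0 of the 10 and 1.97% of all genes, and DESeq2 and limma-voom also picked 0 of the 10. The KO and WT ranges overlapped for every one of the 10, whereas 1.28% of all genes had ranges that did not overlap. Estimates were higher in KO for 5 of the 10, Crlf2 at nearly 0 among them, with 51.7% higher among all genes, and their median log2 fold change was -0.01, against 0.007 over all genes. The adjusted p was 0.999 for each of the 10 by edgeR's quasi-likelihood test, and the 95% intervals given below show which sizes of change the libraries leave possible.

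**Figure D1:**
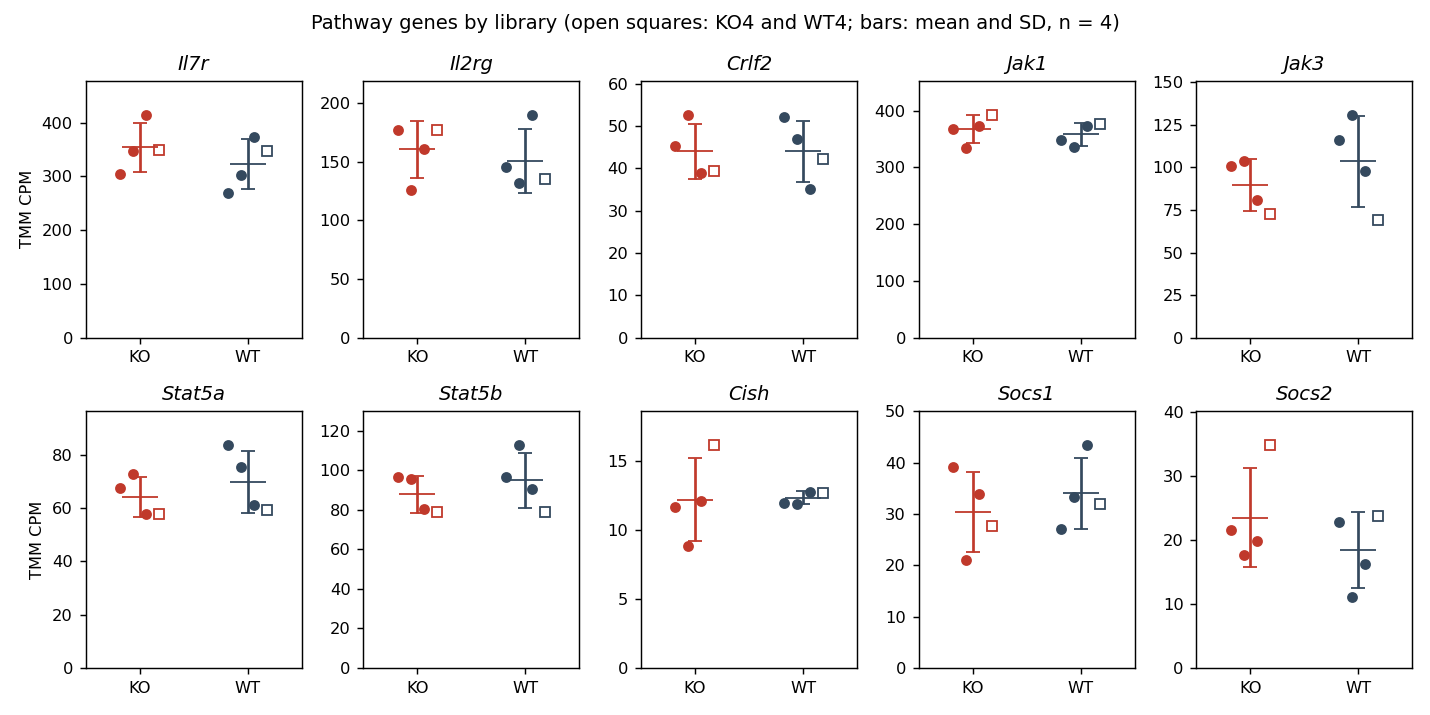
TMM-scaled CPM of the 10 genes in each library, KO left of WT, with bars for the mean and SD (n = 4 each) and open squares for KO4 and WT4. The KO and WT points overlap in every panel, and Socs2 at 34.9 CPM and Cish at 16.2 CPM are highest in the library labelled KO4.

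Il7r, the alpha chain of both receptors (chromosome 15, 9505874 to 9530262, minus strand; coordinates here and below are those of the count files, build GRCm39), stood at 304, 347, 415 and 349 CPM in KO1 to KO4, against 269, 303, 374 and 348 CPM in WT1 to WT4. The highest library was KO3 and the lowest WT1, and the groups overlapped. Means were 354 ± 45.8 CPM in KO and 324 ± 46.8 CPM in WT libraries (SD, n = 4 each). The log2 fold change was 0.13 ± 0.13 (SE), with a 95% interval of -0.15 to 0.41, so that a KO level between 0.899 and 1.33 times that of WT is covered. With 1 library left out it ranged from 0.04, without KO3 or without WT1, to 0.20, without WT3, and without both KO4 and WT4 it was 0.17.

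Il2rg, the common gamma chain (chromosome X, 100307984 to 100311861, minus strand), stood at 177, 126, 161 and 177 CPM in KO1 to KO4, against 145, 132, 190 and 135 CPM in WT1 to WT4. The WT3 library was the highest and KO2 the lowest, and the log2 fold change was 0.09 ± 0.14 (SE; 95% interval -0.23 to 0.41). With 1 library left out it ranged from 0.02, without WT2, to 0.22, without WT3, and without both KO4 and WT4 it was -0.01. Of the exon bases of Il2rg, 30.5% are shared with the overlapping gene Gm20489, and reads there were left out of the counts, so its CPM is uncertain in level.

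Crlf2, the chain that makes Il7r a TSLP receptor (chromosome 5, 109702575 to 109706859, minus strand), stood at 45.2, 52.7, 38.9 and 39.3 CPM in KO1 to KO4, against 52.0, 46.9, 35.0 and 42.1 CPM in WT1 to WT4. Both means were 44.0 CPM, with SDs of 6.48 in KO and 7.20 in WT libraries, and the log2 fold change was 0.00 ± 0.14 (SE; 95% interval -0.32 to 0.32). Its sign turned with the scaling, as at -0.03 with library size alone. The groups covered nearly the same range.

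Jak1, the kinase held by the alpha chain (chromosome 4, 101009564 to 101122479, minus strand), was the steadiest of the 10, at 368, 334, 373 and 393 CPM in KO1 to KO4, against 348, 335, 373 and 376 CPM in WT1 to WT4. Its coefficient of variation over all 8 libraries was 5.85%. The log2 fold change was 0.04 ± 0.09 (SE; 95% interval -0.15 to 0.23).

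Jak3, the kinase held by the gamma chain (chromosome 8, 72128940 to 72143219, plus strand), stood at 101, 104, 80.6 and 72.9 CPM in KO1 to KO4, against 116, 131, 98.1 and 68.8 CPM in WT1 to WT4. KO4 and WT4 were the lowest of their groups, and the log2 fold change was -0.21 ± 0.19 (SE; 95% interval -0.62 to 0.21). With 1 library left out it ranged from -0.36, without WT4, to -0.08, without WT2. Without WT4 the unadjusted p was 0.0371 and the adjusted p 0.793 in edgeR's quasi-likelihood test. Without both KO4 and WT4 the value was -0.27, and with presence of Xist as a covariate it was -0.13.

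Stat5a (chromosome 11, 100750177 to 100775995, plus strand) and Stat5b (chromosome 11, 100671557 to 100741550, minus strand) are neighbouring genes for 2 closely related transcription factors. Stat5a stood at 67.5, 72.9, 57.7 and 57.8 CPM in KO1 to KO4, against 83.7, 75.2, 61.1 and 59.3 CPM in WT1 to WT4. Stat5b stood at 96.6, 95.4, 80.2 and 79.1 CPM in KO1 to KO4, against 96.9, 113, 90.6 and 79.1 CPM in WT1 to WT4. Within each group the libraries numbered 1 and 2 were higher than those numbered 3 and 4 for both genes. Log2 fold changes were -0.13 ± 0.13 for Stat5a (SE; 95% interval -0.42 to 0.17) and -0.11 ± 0.12 for Stat5b (SE; 95% interval -0.38 to 0.16). Leaving out 1 library at a time, they ranged from -0.20 to -0.04 for Stat5a, nearest 0 without WT1, and from -0.19 to -0.02 for Stat5b, nearest 0 without WT2. Reads from stretches the genes share could be assigned to neither: of the 100-base windows of the longest coding transcript, 6.99% of those of Stat5a occur unchanged in Stat5b and 5.18% of those of Stat5b in Stat5a.

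Cish, the STAT5-induced inhibitor of the receptor (chromosome 9, 107173225 to 107179983, plus strand), stood at 11.7, 8.86, 12.1 and 16.2 CPM in KO1 to KO4, against 12.0, 11.9, 12.8 and 12.7 CPM in WT1 to WT4. The KO libraries lay on both sides of a narrow WT range, with SDs of 3.01 CPM in KO and 0.442 CPM in WT libraries. The log2 fold change was -0.01 ± 0.18 (SE; 95% interval -0.41 to 0.39), and with 1 library left out it ranged from -0.18, without the library labelled KO4, to 0.11, without KO2. Without both KO4 and WT4 the log2 fold change was -0.17. The difference in spread was not tested.

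Socs1, an inhibitor of JAK kinases (chromosome 16, 10600104 to 10603400, minus strand), stood at 39.1, 21.1, 33.8 and 27.7 CPM in KO1 to KO4, against 27.1, 33.4, 43.5 and 32.0 CPM in WT1 to WT4. The groups overlapped widely, and the log2 fold change was -0.16 ± 0.20 (SE; 95% interval -0.60 to 0.28). It ranged from -0.31 to -0.02 with 1 library left out, the ends being without KO1 and without KO2. Socs2, known in mice for restraining growth hormone signalling through STAT5 (chromosome 10, 95221224 to 95253042, minus strand), varied most of the 10, at 21.5, 17.7, 19.9 and 34.9 CPM in KO1 to KO4, against 22.8, 11.1, 16.2 and 23.8 CPM in WT1 to WT4. The library labelled KO4 was the highest and WT2 the lowest, and the coefficient of variation over all 8 libraries was 33.2%. Its log2 fold change of 0.35 ± 0.27 (SE; 95% interval -0.25 to 0.95) was 0.24 without KO4 and WT4. With 1 library left out it ranged from 0.09, without KO4, to 0.50, without WT4, and with presence of Xist as a covariate it was 0.22. Summed basophil and mast cell markers, 7 genes, were highest in the same library, at 153, 203, 207 and 472 CPM in KO1 to KO4, against 155, 214, 305 and 386 CPM in WT1 to WT4. Their part in the Socs2 value was not tested.

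**Figure D2:**
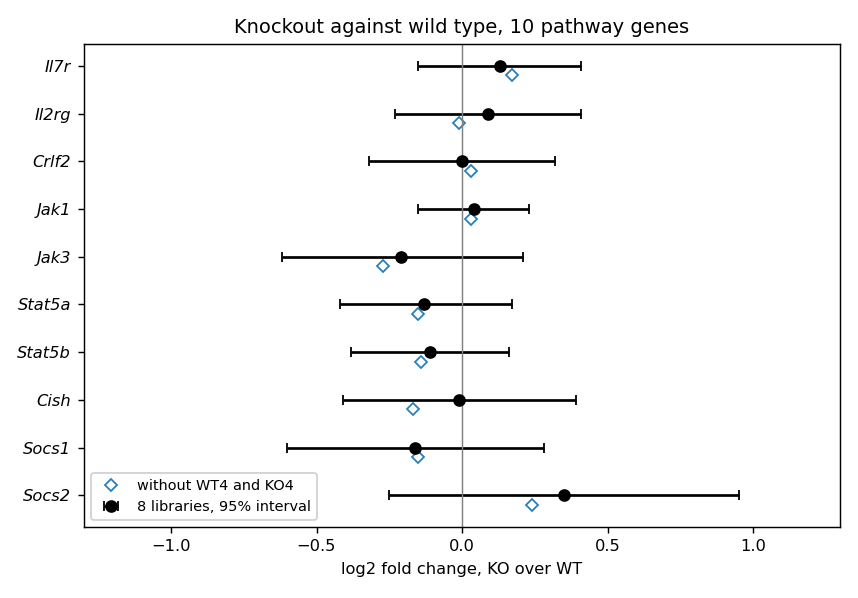
Log2 fold change of each of the 10 genes, KO over WT, with 95% intervals from the edgeR fit and open diamonds for the value without KO4 and WT4. Every interval crosses 0, from Jak3 at -0.21 to Socs2 at 0.35, and the interval of Jak1 is the narrowest.

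Compared per length, on the TPM scale estimated by RSEM, which gives each transcript's share of all transcripts in a library, Il2rg, Il7r and Jak1 were the most abundant of the 10 and Cish the least. Il2rg averaged 285 ± 49.6 TPM over the 8 libraries, Il7r 154 ± 17.5 TPM and Jak1 105 ± 7.58 TPM (SD), and each stood above the next in 8 of 8 libraries. Crlf2 followed at 43.7 ± 7.79 TPM and Jak3 at 33.3 ± 8.39 TPM, in that order in 7 of 8 libraries. Stat5a at 26.9 ± 5.40 TPM, Stat5b at 23.6 ± 3.75 TPM and Socs2 at 23.3 ± 8.19 TPM lay within their spreads of each other, and Stat5b exceeded Socs2 in 5 of 8 libraries. Socs1 at 14.2 ± 2.88 TPM and Cish at 9.80 ± 2.56 TPM closed the order. Counts divided by the gene length of the count files gave another order for 6 of the 10. On that scale Il7r stood first and Il2rg second, and Stat5b sixth, Socs1 seventh, Stat5a eighth and Socs2 ninth, with means of 16.5 for Stat5b, 11.1 for Socs1, 9.38 for Stat5a and 2.20 for Socs2. Jak1, Crlf2, Jak3 and Cish kept their places, and the order among the STAT5 and SOCS genes therefore depended on the scale.

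**Figure D3:**
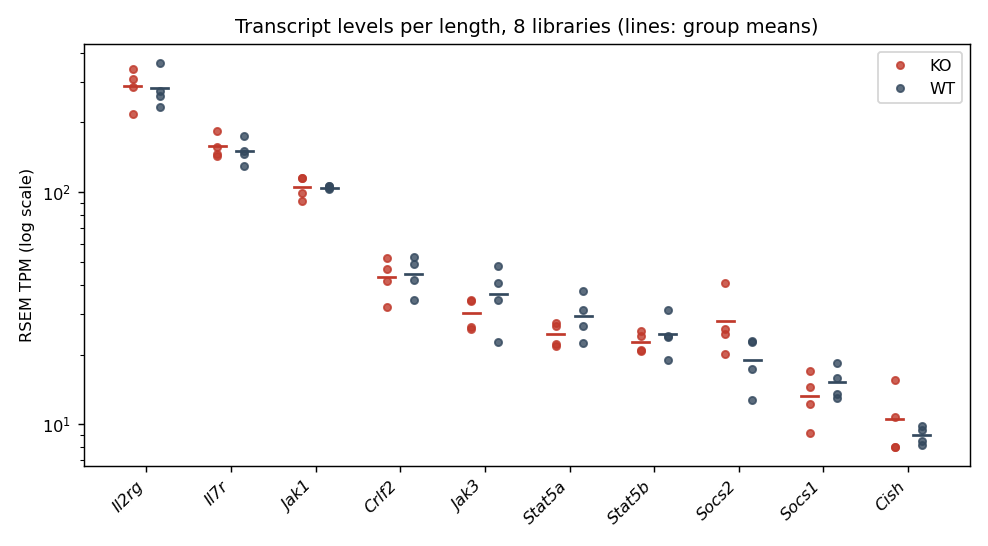
RSEM TPM of the 10 genes in each library on a log axis, ordered by mean level, KO left of WT. Il2rg, Il7r and Jak1 stand at 91.9 TPM or more in every library, and the STAT5 genes overlap with Socs2.

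Ratios between partners on the TPM scale overlapped between the groups as well. Crlf2 stood at 0.322, 0.361, 0.173 and 0.263 TPM per TPM of Il7r in KO1 to KO4, against 0.405, 0.327, 0.197 and 0.284 in WT1 to WT4. The libraries numbered 3 held the least TSLP receptor chain per alpha chain in both groups. Stat5b per Stat5a stood at 0.948, 0.878, 0.940 and 0.963 in KO1 to KO4, against 0.634, 1.01, 0.907 and 0.837 in WT1 to WT4, close to parity except in WT1. Jak3 per Jak1 stood at 0.296, 0.375, 0.265 and 0.224 in KO1 to KO4, against 0.382, 0.462, 0.324 and 0.220 in WT1 to WT4, so Jak3 RNA was the scarcer of the kinase pair in all 8 libraries.

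Across the 8 libraries, Stat5a, Crlf2, Stat5b and Jak3 were lower where Il7r was higher, but no relation held after adjustment, and with the means of genotype and replicate number removed the r of Crlf2 turned to 0.36 and that of Stat5a was -0.40. Each of the other 9 genes was compared with Il7r on log2 CPM, with a two-sided exact permutation test over all pairings of libraries and Benjamini-Hochberg adjustment over the 16351 other genes tested. Of the 9, 0 had an adjusted p under 0.05, as did 0% of all genes, and 1 had an unadjusted p under 0.05 by Pearson's r, against 8.73% of all genes. The correlation with Il7r was negative for 4 of the 9 and for 49.5% of all genes. All the values share the libraries, their scaling and their mixture of cells.

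Stat5a gave Pearson's r = -0.83 with Il7r (exact permutation p = 0.0101, adjusted 0.417) and Spearman's rho = -0.90 (exact permutation p = 0.00456, adjusted 0.436), and 2.42% of all genes had an r as far from 0. Without KO3 and WT1, the 2 libraries farthest from the median of Il7r, r was -0.62 (exact permutation p = 0.218), so the relation rests in part on them. Removing the group means left r at -0.81.

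Crlf2 gave r = -0.70 with Il7r (exact permutation p = 0.0536, adjusted 0.577) and rho = -0.83 (exact permutation p = 0.0154, adjusted 0.516), and r was -0.55 without KO3 and WT1. Stat5b gave r = -0.65 (exact permutation p = 0.0858, adjusted 0.62) and rho = -0.76 (exact permutation p = 0.0368, adjusted 0.54), and r was -0.66 without those libraries. Jak3 gave r = -0.62 (exact permutation p = 0.102, adjusted 0.644) and rho = -0.74 (exact permutation p = 0.0458, adjusted 0.549), and r was -0.54 without them. On RSEM TPM the r values were -0.64 for Stat5a, -0.93 for Crlf2, -0.23 for Stat5b and -0.36 for Jak3, so the order of these genes depended on the counting. Jak1 gave r = 0.47 (exact permutation p = 0.24) and rho = 0.64, with 30.9% of all genes having an r at least as far from 0. Il2rg, the partner chain, gave r = 0.28 (exact permutation p = 0.503) and rho = 0.50, with 57.3% of all genes as far from 0. The inhibitors gave r = 0.17 for Socs1, 0.09 for Cish and 0.08 for Socs2, all between the quartiles of r over all genes, -0.32 and 0.34.

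**Figure D4:**
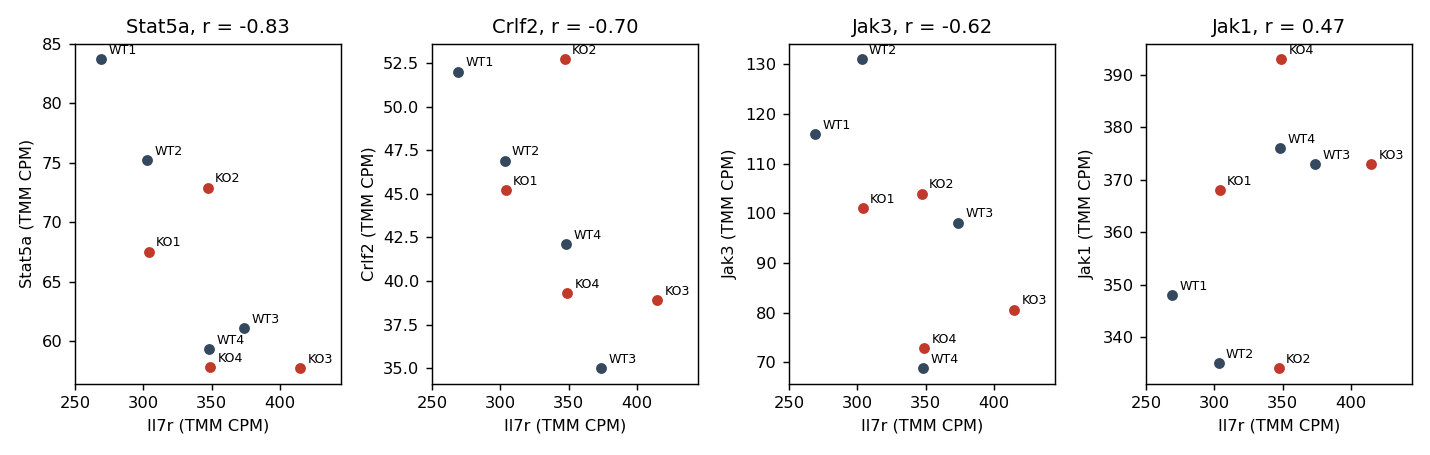
TMM-scaled CPM of Stat5a, Crlf2, Jak3 and Jak1 against that of Il7r, 1 labelled point per library, with r computed on log2 CPM. Stat5a (r = -0.83) lies lower where Il7r is higher, while Jak1 (r = 0.47) shows a slight opposite slope.

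Some lists of cell type markers varied with Il7r across the libraries, and others had a median r near 0. All 8 erythroid markers had a negative r with Il7r, with a median of -0.90, against 0.01 over all genes, and the median was -0.81 without KO3 and WT1. Their adjusted p-values were between 0.294 and 0.427 in the exact permutation test. The markers varied much alike across the libraries, so they do not count as 8 separate results. Their summed level was 156, 81.8, 24.6 and 29.1 CPM in KO1 to KO4, against 382, 115, 33.1 and 28.7 CPM in WT1 to WT4, highest in WT1, where Il7r was lowest, and none was at 0. Of the basophil and mast cell markers, 6 of 7 had a positive r, with a median of 0.57. The median r was 0.12 for the early lymphoid markers other than Il7r and 0.0 for the plasmacytoid dendritic cell markers. For the T cell markers it was 0.49, and -0.03 without KO3 and WT1. All 8 markers of natural killer and group 1 innate lymphoid cells had a positive r, with a median of 0.44, and 0.19 without those libraries. The neutrophil markers had a median r of -0.45, and -0.1 without them. GC content differs within the pathway, 40.5% for Il7r and between 52.7% and 65.6% for the 4 genes with a negative r. It was between 45.4% and 58.8% for the genes with a positive r, so the ranges overlap. After a correction for GC content, r was -0.79 for Stat5a, -0.56 for Crlf2, -0.60 for Stat5b and -0.59 for Jak3. The part of the markers in the relations was not tested. Depth and Xist classes of libraries each hold fewer than 6 libraries, so no correlation within them is given.

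By the rule for likeness, the 5 genes most like Il7r among those of at least 10 CPM were Hat1, Mphosph6, Gemin6, Zfand6 and Sox4, with r between 0.93 and 0.94 over 8 libraries. Sox4, a transcription factor of early lymphoid cells, stood at 178, 239, 260 and 260 CPM in KO1 to KO4, against 133, 177, 255 and 236 CPM in WT1 to WT4. Hat1, a histone acetyltransferase, gave r = 0.94 (exact permutation p = 0.000769, adjusted 0.294), and 0.89 without KO3 and WT1. Among the genes most opposite were Orai2, a calcium channel subunit, at r = -0.97 and Txnrd2 at -0.96. No r of any gene with Il7r had an adjusted p under 0.05 in the exact permutation test. The smallest was 0.27, which among the genes named here was that of Zfand6.

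**Figure D5:**
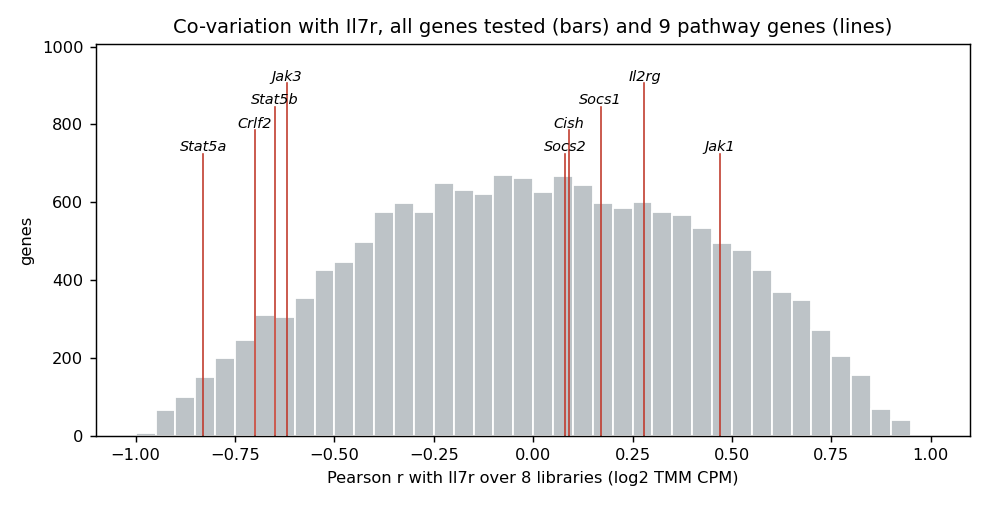
Distribution of Pearson's r with Il7r over the 16351 other genes tested, with the 9 other pathway genes marked. The genes spread widely on both sides of a median of 0.01, and Stat5a at -0.83 lies in the left tail.

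Among the 45 pairs of the 10 genes, Jak3 and Stat5b moved together most closely, with r = 0.97 (exact permutation p = 0.000124, adjusted over all genes 0.0759 with Jak3 as the seed) and rho = 0.98. Only 0.147% of all genes had an r with Jak3 as far from 0, and r was 0.96 without KO4 and WT4. Stat5a followed Jak3 at r = 0.86 and Crlf2 at r = 0.85. Jak1 ran the other way, with r = -0.84 to Stat5a, -0.83 to Jak3 and -0.82 to Stat5b. These pairs were singled out after their values were seen, and they are given as a description.

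Of the ligands, the list holds 7 genes and 3 passed the filter, none of which passed the test. Il7 itself, made chiefly by stromal cells, averaged 0.641 ± 0.274 CPM in KO and 0.610 ± 0.224 CPM in WT libraries (SD, n = 4 each), with at most 60 counts in a library. Tslp reached at most 12 counts and Il2 at most 26, and both were under the filter. Il9 and Il21 had no count in any library, where 3 counts would be 0.0409 to 0.0964 CPM. This limit covers counting error only and takes each count as independent. Il4 averaged 1.38 ± 0.578 CPM in KO and 1.99 ± 1.20 CPM in WT libraries, and Il15 3.55 ± 0.407 CPM in KO and 2.83 ± 1.16 CPM in WT libraries.

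Around the pathway, 77 of the 81 genes of 7 lists passed the filter, and 0 were called higher or lower in KO at an adjusted p under 0.05 by edgeR's quasi-likelihood test, against 0% of all genes. At an unadjusted p under 0.05 there were 3, against 1.97% of all genes. They were Il9r, Cbl and Mtor, all with lower estimates in KO.

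Other receptors of the gamma chain family and their partners counted 8 genes, 1 with a higher and 7 with lower estimates in KO, and a median log2 fold change of -0.10. Il9r, the alpha chain of the interleukin 9 receptor, stood at 5.52, 2.04, 3.87 and 9.31 CPM in KO1 to KO4, against 8.47, 12.0, 16.2 and 7.28 CPM in WT1 to WT4. KO1, KO2 and KO3 lay below every WT library, while the library labelled KO4 lay above WT1 and WT4. The log2 fold change was -1.07 ± 0.41 (SE; edgeR's quasi-likelihood test, unadjusted p = 0.0258, adjusted 0.999). Without KO4 and WT4 it was -1.68. Il9r is also borne by group 2 innate lymphoid cells, whose 8 markers summed to 379, 251, 462 and 489 CPM in KO1 to KO4, against 351, 486, 699 and 388 CPM in WT1 to WT4. Of these markers, 7 had lower and 1 had higher estimates in KO. Their median log2 fold change was -0.42, against 0.007 over all genes, and none was called. The part of these cells in the Il9r value was not tested. Csf2rb averaged 93.8 ± 13.7 CPM in KO and 105 ± 31.3 CPM in WT libraries, and Il15ra 6.79 ± 0.944 CPM in KO and 7.43 ± 1.32 CPM in WT libraries.

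The other JAKs and STATs, 7 genes, had 3 higher and 4 lower estimates and a median log2 fold change of -0.04. Tyk2, a kinase of interferon and interleukin 12 receptors, stood at 99.6, 76.3, 76.8 and 71.0 CPM in KO1 to KO4, against 133, 113, 77.2 and 84.9 CPM in WT1 to WT4. Its log2 fold change was -0.34 ± 0.18 (SE), which did not pass the test. Stat6, which carries interleukin 4 signals, averaged 191 ± 15.6 CPM in KO and 200.0 ± 11.5 CPM in WT libraries, and Stat4 34.2 ± 2.80 CPM in KO and 32.4 ± 4.85 CPM in WT libraries.

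Negative regulators other than the 3 inhibitors above, 18 genes, had 7 higher and 11 lower estimates and a median log2 fold change of -0.06. Cbl, a ubiquitin ligase that marks activated receptors and kinases for turnover, stood at 142, 125, 122 and 130 CPM in KO1 to KO4, against 175, 187, 143 and 137 CPM in WT1 to WT4. Only KO1 reached into the WT range, and the log2 fold change was -0.31 ± 0.11 (SE; edgeR's quasi-likelihood test, unadjusted p = 0.0204, adjusted 0.999). Without KO4 and WT4 the value for Cbl was -0.38. Pias1, an inhibitor of STAT binding, averaged 212 ± 2.93 CPM in KO and 193 ± 19.2 CPM in WT libraries.

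Targets of STAT5, 14 genes, had 6 higher and 8 lower estimates and a median log2 fold change of 0 to 2 decimals. Pim1, a survival kinase, averaged 60.1 ± 9.46 CPM in KO and 66.9 ± 6.88 CPM in WT libraries. Ccnd2, a G1 cyclin, averaged 377 ± 71.3 CPM in KO and 350 ± 41.1 CPM in WT libraries. Neither passed the test, and the median r of the targets with Il7r was 0.19.

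The arm of PI3K, AKT and FOXO, which the receptor also feeds, counted 15 genes with 5 higher and 10 lower estimates and a median log2 fold change of -0.07. Mtor, the growth kinase downstream of AKT, stood at 39.3, 32.5, 31.3 and 37.4 CPM in KO1 to KO4, against 52.3, 53.7, 35.9 and 37.5 CPM in WT1 to WT4, a log2 fold change of -0.35 ± 0.15 (SE; edgeR's quasi-likelihood test, unadjusted p = 0.0434, adjusted 0.999). Pik3cd, the leukocyte PI3K catalytic subunit, stood at 242, 238, 197 and 219 CPM in KO1 to KO4, against 303, 295, 221 and 243 CPM in WT1 to WT4. WT1 and WT2 were the highest libraries for both genes. Without KO4 and WT4 the log2 fold change of Mtor was -0.46. The r of Mtor with Il7r was -0.85, and -0.71 without KO3 and WT1. That of Pik3cd was -0.91, and -0.75 without those libraries. The median r of the 15 genes with Il7r was -0.55, with 9 negative, and -0.07 with 8 negative without those 2 libraries.

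Regulators of Il7r transcription, 14 genes, had 10 higher and 4 lower estimates and a median log2 fold change of 0.02. Ikzf1, the lymphoid zinc finger factor Ikaros, averaged 336 ± 17.0 CPM in KO and 353 ± 18.7 CPM in WT libraries, and Gabpb1, a subunit of the ETS-family complex GABP, 130 ± 15.3 CPM in KO and 121 ± 22.0 CPM in WT libraries. Nr3c1, the glucocorticoid receptor, which raises Il7r in T cells, averaged 125 ± 11.8 CPM in KO and 119 ± 10.3 CPM in WT libraries. Foxo1, an activator of Il7r in lymphocytes that is named after its values were seen, stood at 16.1, 17.0, 17.0 and 17.5 CPM in KO1 to KO4, against 11.7, 16.5, 21.2 and 17.4 CPM in WT1 to WT4. It was lowest in WT1, the library with the lowest Il7r, and its r with Il7r was 0.75 (exact permutation p = 0.0362, adjusted 0.537) and 0.82 without KO3 and WT1. That r was the highest of the 14 genes, whose median r was 0.28, with 8 positive and 6 negative. Without KO3 and WT1 the median was 0.22, with 4 negative.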

How the data were processed

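The deposited tables hold, for 4 KO and 4 WT libraries, whole-number read counts per gene from featureCounts 1.6.4, per the file headers, and RSEM expected counts with TPM, which are deposited as the authors estimated them. Build mm10, STAR 2.6.0a, Picard 2.19 and RSEM 1.3.1 are named in the submitters' processing notes, whereas the annotation behind the counts is GRCm39 by its header path. Of 52056 nuclear genes, 2.77% had the start and end of the GENCODE annotation of GRCm38, so coordinates of the count files were taken as GRCm39. The header shows default settings, under which reads of both strands were counted together and reads overlapping several genes left out. Total counts were 3.67 to 4.00 times the total of expected counts, a ratio whose cause was not tested. Among genes with 1 to 100 counts in a library, 59.9% to 76.6% had an even count. Counts given here may therefore not be numbers of independent fragments. Symbols were matched for 97.1% of identifiers. The total counts per library, 31109744 to 73414626, limit precision by counting error only.

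Counts of all 8 libraries were fitted in edgeR 4.0.16 (R 4.3.3) with filterByExpr, TMM scaling, a quasi-likelihood F test of KO against WT with no covariate, and Benjamini-Hochberg adjustment over 16352 genes at a threshold of 0.05. CPM are TMM-scaled, their errors are SD, and log2 CPM used a prior count of 3. The edgeR step was checked on simulated counts, and the co-variation step on simulated normal values with known correlations. Genes were named by rule: Trerf1, the 10 pathway genes, up to 3 genes of each list with the smallest p, and the 5 highest and 3 lowest r with Il7r among genes of at least 10 mean CPM. Any other gene is said to be named after its values were seen, and a gene that the rule names is left out here. The 10 genes, the lists and the marker lists were chosen with earlier results of these data known. Alternatives were RLE factors, library size alone, other filters, DESeq2 1.42.0, limma-voom of limma 3.58.1 with quality weights, rounded expected counts, a replicate block, presence of Xist as covariate, a threshold of 0.1, and libraries left out.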

Additional observations from a re-analysis of the deposited data

Results flagged for a closer look

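Trerf1 in the library labelled KO4, at 22.1 CPM, lay far from the other 3 KO libraries. Its gap to the nearest of them was 0.88 of the range of the 4 KO libraries, above Dixon's 95% critical value for 4 samples. In all, 22 groups of 4 values were looked at, the KO and WT libraries for Trerf1 and each of the 10 pathway genes, and chance flags about 1 in 20 such groups. None of the 10 pathway genes had such a library in either group.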

How the results depend on the processing

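None of the 10 pathway genes was called under any alternative run, and no r of theirs with Il7r passed the adjusted threshold where it was tested. The number of genes called over the whole table was 0 except when KO4 and WT4 were both left out, which gave 12, all lower in KO, and 53 with the replicate block as well (4 higher and 49 lower). Trerf1 was then at -1.20 in both, with adjusted p-values of 0.0473 and 0.0146 in edgeR's quasi-likelihood test, and the cause was not tested. KO4 was the KO library highest in Trerf1 and WT4 the WT library lowest in it, so the Trerf1 change grows by construction without them. Whether replicate numbers pair the libraries is not given in the labels. Deviations from group means correlated at 0.36, 0.31, -0.03 and 0.12 for numbers 1 to 4, so the pairs were not all above 0.1, and KO3, KO4, WT3 and WT4 correlated best with a library of another number. With the replicate block, 0 genes were called, 634 had an unadjusted p under 0.05, and 1 of these was among the 10, Socs2 at 0.36. Small log2 fold changes turned sign. Crlf2 was at -0.005 with RLE factors, -0.03 with library size alone, -0.01 with no filter or a mean CPM of at least 1, -0.06 with expected counts, -0.003 with DESeq2, -0.03 with limma-voom, and between -0.10 and 0.08 with 1 library left out. With 1 library left out, Cish ranged from -0.18 to 0.11 and Jak1 from -0.001 to 0.08. Il2rg was at -0.01 without KO4 and WT4, and -0.009 with the replicate block as well. Weak correlations with Il7r turned sign too. For Socs2, r was -0.05 with library size alone, -0.05 after GC correction, -0.08 with group means removed, -0.06 without KO4 and WT4, and between -0.21 and 0.24 with 1 library left out. For Cish, r was -0.18 after GC correction and -0.03 without KO4 and WT4. For Jak1 it was -0.05 on RSEM TPM. For Socs1 it was -0.11 without KO3 and WT1 and between -0.01 and 0.35 with 1 library left out. With the replicate block, removing the means of genotype and replicate number, r was -0.60 for Il2rg, 0.36 for Crlf2, -0.42 for Jak1, -0.91 for Cish, -0.29 for Socs2, -0.40 for Stat5a, -0.59 for Stat5b, -0.95 for Jak3 and 0.01 for Socs1. The fits that joined the block with leaving out KO4 and WT4, the removal of replicate means and the GC correction were chosen after seeing the data. With 4 libraries a group, small changes of these genes remain within the intervals given. The biological coefficient of variation of 26.9% is a common value over all genes tested. The coefficient of variation of the 10 genes over the 8 libraries ran from 5.85% for Jak1 to 33.2% for Socs2.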
